A study of Mus musculus with 12 samples.

Results

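The libraries labelled HT-DNA 2 and cGAMP 2 were set against the libraries labelled mock 1 and hpRNA 1, 4 of the 12 polyA RNA-seq libraries of a series on L929, an established mouse fibroblast line. Per the labels, RNA was taken 6 hours after transfection in every group, HT-DNA and hpRNA libraries followed a transfection with that agent, cGAMP libraries are described as stimulated with cGAMP, and mock cells as untreated. The other labels of the series are G3-YSD and HSV, each given as a transfection, and all 6 labels hold 2 libraries. The labels give no dose, and name transfections in duplicate without saying whether the libraries of a label came from separate cultures.

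The 4 libraries were chosen by their counts and not by their labels, and the choice crosses the labels. HT-DNA 2 and cGAMP 2 share the number 2, while mock 1 and hpRNA 1 share the number 1. The comparison is thus also one between replicate numbers, whose part in the differences was not tested. A noise ratio, the median squared difference in counts over what counting alone gives, was 1.73 between HT-DNA 2 and cGAMP 2 and 1.85 between mock 1 and hpRNA 1. It was 3.32 between the HT-DNA libraries, 4.04 between the cGAMP libraries, 8.57 between the mock libraries and 8.34 between the hpRNA libraries. HT-DNA 2 lay nearer to mock 2 (2.80) and hpRNA 2 (3.11) than to HT-DNA 1. Likewise, cGAMP 2 lay nearer to mock 2 (3.60) and hpRNA 2 (3.28) than to cGAMP 1. For all 12, the lowest ratio was to a same-numbered library under another label. The libraries of one pair are therefore not replicates of a treatment, no library is moved to another label here, and it is not known what each tube received beyond its label. The differences between the pairs were part of what chose them, so they are described library by library, with no test, no p and no SD. Neither counts nor labels can show whether a level stands for all cells or for a part of them: fewer responding cells and less RNA per cell cannot be told apart.

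Type I interferons are secreted antiviral cytokines. Foreign DNA in the cytosol is bound by cGAS, which makes the second messenger cGAMP. That messenger binds the adaptor STING, and the kinase TBK1 then activates the factor IRF3, which switches on Ifnb1. Secreted interferon acts through its receptor and the kinases JAK1 and TYK2 on a complex that includes STAT2 and IRF9, which binds interferon response elements at the interferon-stimulated genes.

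Promoters of interferon beta and of 4 interferon-stimulated genes on which the results turn are shown so that the response elements can be seen beside the levels. They are RefSeq sequences of build GRCm38.p6, the 250 bases before each start site, at chr4:88522795-88523044 (minus strand), chr19:34640639-34640888 (plus strand), chr12:26456453-26456702 (minus), chr4:156200819-156201068 (minus) and chr5:92348890-92349139 (minus). Capitals mark the core of the interferon response element, searched on both strands as GAAA, 2 bases of any kind and GAAA again, so that a pair of TTTC is the same core on the other strand.
Ifnb1: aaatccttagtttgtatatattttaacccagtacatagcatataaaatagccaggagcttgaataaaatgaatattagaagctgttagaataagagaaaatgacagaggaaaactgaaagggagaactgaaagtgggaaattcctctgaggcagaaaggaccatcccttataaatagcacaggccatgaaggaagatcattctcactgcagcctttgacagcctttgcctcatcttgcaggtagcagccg
Ifit1: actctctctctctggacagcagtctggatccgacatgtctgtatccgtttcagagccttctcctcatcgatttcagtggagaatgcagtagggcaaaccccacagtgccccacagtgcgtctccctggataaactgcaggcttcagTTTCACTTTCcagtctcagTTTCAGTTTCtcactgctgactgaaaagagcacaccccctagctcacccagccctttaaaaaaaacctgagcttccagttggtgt
Rsad2: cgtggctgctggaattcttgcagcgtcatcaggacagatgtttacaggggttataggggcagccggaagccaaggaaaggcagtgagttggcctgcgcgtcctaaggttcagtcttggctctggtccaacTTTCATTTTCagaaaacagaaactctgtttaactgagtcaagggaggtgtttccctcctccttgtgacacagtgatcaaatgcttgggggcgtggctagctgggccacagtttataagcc
Isg15: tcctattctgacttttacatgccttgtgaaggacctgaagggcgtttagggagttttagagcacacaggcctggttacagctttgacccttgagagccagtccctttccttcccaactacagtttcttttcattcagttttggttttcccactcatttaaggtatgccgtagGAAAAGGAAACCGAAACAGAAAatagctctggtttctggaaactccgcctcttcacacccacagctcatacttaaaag
Cxcl10: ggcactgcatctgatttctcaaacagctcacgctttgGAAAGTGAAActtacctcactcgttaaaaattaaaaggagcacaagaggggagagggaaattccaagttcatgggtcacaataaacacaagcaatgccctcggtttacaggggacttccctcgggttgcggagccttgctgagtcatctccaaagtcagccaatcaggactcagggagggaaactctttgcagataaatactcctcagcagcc

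The Isg15 promoter held 3 overlapping cores that start 78, 72 and 66 bases before the start site. The Ifit1 promoter held 2, at 104 and 85 bases, while Rsad2 held 1 at 120 bases and Cxcl10 held 1 at 213 bases. No such letters were found in the Ifnb1 window. Only this exact spacing was searched, so elements with other letters or spacing would be missed.

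Total counts were 16282688 in HT-DNA 2, 15579347 in cGAMP 2, 16844344 in mock 1 and 16938176 in hpRNA 1. Levels are CPM, counts per library size on the TMM scale. Mitochondrial genes took 2.14% and 2.24% of the counts in HT-DNA 2 and cGAMP 2, and 2.52% and 2.49% in mock 1 and hpRNA 1. Of 11 fibroblast markers, 10 reached 1 CPM in all 4 libraries, with a summed level of 4310 and 4349 CPM in HT-DNA 2 and cGAMP 2, against 4298 and 4506 CPM in mock 1 and hpRNA 1. Of 9 macrophage and leukocyte markers, 3 reached 1 CPM in all 4, summing to 90.9 and 90.7 CPM in HT-DNA 2 and cGAMP 2, against 99.3 and 105 CPM in mock 1 and hpRNA 1, and Cd3e was at 0 in all 4. The part of these shares and sums in the differences below was not tested. None of 4 endothelial and 5 epithelial markers reached 1 CPM in all 4.

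Far more genes were higher than lower in HT-DNA 2 and cGAMP 2, set against mock 1 and hpRNA 1, and 84 of the higher ones were on a list of interferon-stimulated genes. A gene counted as higher or lower where all 4 library-to-library ratios of CPM + 0.5 were at least 2-fold in one direction. Among 12764 genes with at least 1 CPM in both libraries of either pair, 329 were higher (2.58%) and 39 were lower (0.306%). The median over all tested genes of the mean log2 ratio was 0.00, and its lowest and highest deciles were -0.38 and 0.38. Between HT-DNA 2 and cGAMP 2 themselves, 15 genes differed 2-fold either way (0.118%), and between hpRNA 1 and mock 1 there were 12 (0.094%). Requiring the libraries only not to overlap gave 4542 genes above (35.6%) and 4432 below (34.7%). The count of lower genes leaned on single choices: it was 19 with a pseudocount of 2, and 64 without HT-DNA 2 or without cGAMP 2, where only 2 ratios had to pass.

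**Figure D1:**
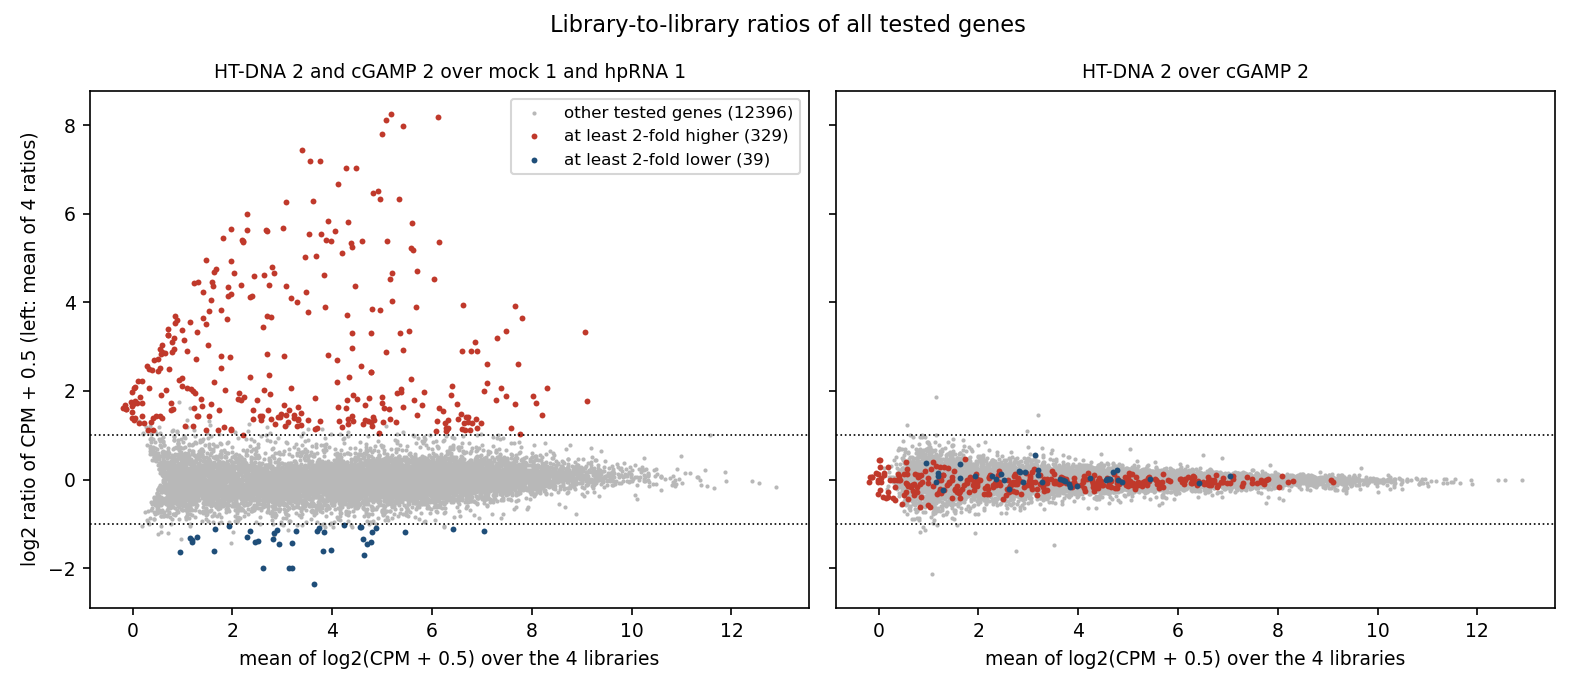
Log2 ratio of CPM + 0.5 (vertical) against the mean level over the 4 libraries (horizontal) for the 12764 tested genes, 1 point a gene. On the left, the mean of the 4 ratios of HT-DNA 2 and cGAMP 2 over mock 1 and hpRNA 1 reaches above 8 for a few of the 329 higher genes (red), while the 39 lower genes (blue) stay above -3. On the right, the red and blue genes all lie within 2-fold between HT-DNA 2 and cGAMP 2, while 15 of all tested genes do not.

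The higher genes spread over a wide range, and the lower genes did not. Of the 329, 164 were at least 4-fold higher in all 4 ratios, 112 at least 8-fold, 70 at least 16-fold, 41 at least 32-fold and 17 at least 64-fold. Only Klhl24 was at least 4-fold lower. The 329 genes took 3.08% of the counts in HT-DNA 2 and 3.17% in cGAMP 2, against 0.525% in mock 1 and 0.523% in hpRNA 1. Protein-coding genes made up 278 of the higher and 38 of the lower genes. At the threshold, Fhl2, Ehd4 and Whamm lay just inside, with smallest ratios of 1.00, 1.01 and 1.02 on the log2 scale. Plaur, Csf1 and Dnm3os lay just outside, with 0.997, 0.99 and 0.98.

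Interferon transcripts themselves were present in HT-DNA 2 and cGAMP 2. Ifnb1 (chr4:88522025-88522774, minus strand), which encodes interferon beta, had 183 and 142 counts, or 11.5 and 9.43 CPM, in HT-DNA 2 and cGAMP 2, and no count in mock 1 or hpRNA 1. Set against a floor of 3 counts per library, that is at least 54.5-fold higher. Ifna4, an interferon alpha gene, had 5.78 and 6.04 CPM in HT-DNA 2 and cGAMP 2, none in mock 1 and 0.0577 CPM in hpRNA 1, a single count. These 2 were the only genes tested of the 21 interferons listed, and 9 of the 21, Ifng among them, had no count in any of the 4 libraries. Both tested genes passed the filter of 1 CPM only through HT-DNA 2 and cGAMP 2, so their direction was set by it. The interferon alpha genes resemble each other closely, and reads may be shared among them.

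Of 95 interferon-stimulated genes, 88 were tested and 84 were at least 2-fold higher, against 2.58% of all tested genes. The 88 had a median of the mean log2 ratio of 3.76, against 0.00 over all tested genes. The summed level of the 95 was 17341 and 18200 CPM in HT-DNA 2 and cGAMP 2, against 2416 and 2434 CPM in mock 1 and hpRNA 1. All 88 had both HT-DNA 2 and cGAMP 2 above both mock 1 and hpRNA 1, against 35.6% of all tested genes. Members under 1 CPM in mock 1 and hpRNA 1, such as Mx1 and Mx2, passed the filter only through HT-DNA 2 and cGAMP 2. For these the direction was set by the filter. The 4 tested members short of 2-fold were the antiviral zinc-finger gene Zc3hav1 (ratios of 0.35 to 0.44), Shisa5 (0.60 to 0.76), Ly6e (0.75 to 0.81) and Ifi27 (0.76 to 1.20), all on the log2 scale.

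Antiviral effectors were among the genes furthest apart. Rsad2, the gene of viperin, which blocks the replication of many viruses, had 1151 and 1225 CPM in HT-DNA 2 and cGAMP 2, against 3.44 and 3.69 CPM in mock 1 and hpRNA 1, with log2 ratios of 8.10 to 8.28. Ifit1, whose protein binds foreign RNA ends, had 676 and 688 CPM, against 2.12 and 2.31 CPM (7.91 to 8.04). Ifit3 had 452 and 503 CPM in HT-DNA 2 and cGAMP 2, against 1.72 and 1.56 CPM in mock 1 and hpRNA 1 (7.67 to 7.93), and its near-identical neighbour Ifit3b, with which it may share reads, had 138 and 146 CPM, against 0.287 and 0.693 CPM. Ifit3b rests on 5 and 12 counts in mock 1 and hpRNA 1.

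Mx1, a GTPase that restricts influenza virus, had 126 and 149 CPM in HT-DNA 2 and cGAMP 2, against 0.631 and 0.0577 CPM in mock 1 and hpRNA 1. Its relative Mx2 had 158 and 168 CPM, against 0.804 and 0.462 CPM. Isg15, the ubiquitin-like modifier, had 266 and 292 CPM in HT-DNA 2 and cGAMP 2, against 3.16 and 2.77 CPM in mock 1 and hpRNA 1 (6.19 to 6.48). Usp18, which removes that modifier and dampens receptor signalling, had 255 and 274 CPM, against 2.47 and 2.54 CPM (6.40 to 6.53). Ifit2 started from a higher level, with 285 and 318 CPM in HT-DNA 2 and cGAMP 2, against 41.6 and 37.9 CPM in mock 1 and hpRNA 1 (2.76 to 3.05). Oas1a, Oas2 and Oas3, which sense double-stranded RNA, were also among the higher genes, at 102 and 108, 28.7 and 30.8, and 89.4 and 101 CPM in HT-DNA 2 and cGAMP 2, against 6.43 and 7.16, 0.976 and 0.923, and 2.35 and 1.27 CPM in mock 1 and hpRNA 1.

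The guanylate-binding proteins and immunity-related GTPases, which attack the vacuoles of intracellular pathogens, were higher in all 18 tested of 19 listed. The share over all tested genes was 2.58%, and the list median was 5.39. Members under 1 CPM in mock 1 and hpRNA 1, such as Gbp3, passed the filter only through HT-DNA 2 and cGAMP 2. That favours this count. Iigp1 had 605 and 658 CPM in HT-DNA 2 and cGAMP 2, against 1.09 and 2.19 CPM in mock 1 and hpRNA 1, with log2 ratios of 7.81 to 8.69. Igtp had 222 and 221 CPM, against 1.44 and 0.981 CPM, and Irgm2 had 244 and 268 CPM, against 1.03 and 1.96 CPM. Their annotated spans overlap on chromosome 11, so reads may be shared. Gbp3 had 104 and 111 CPM in HT-DNA 2 and cGAMP 2, against 0.861 and 0.923 CPM in mock 1 and hpRNA 1. Gbp8 was not tested.

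**Figure D2:**
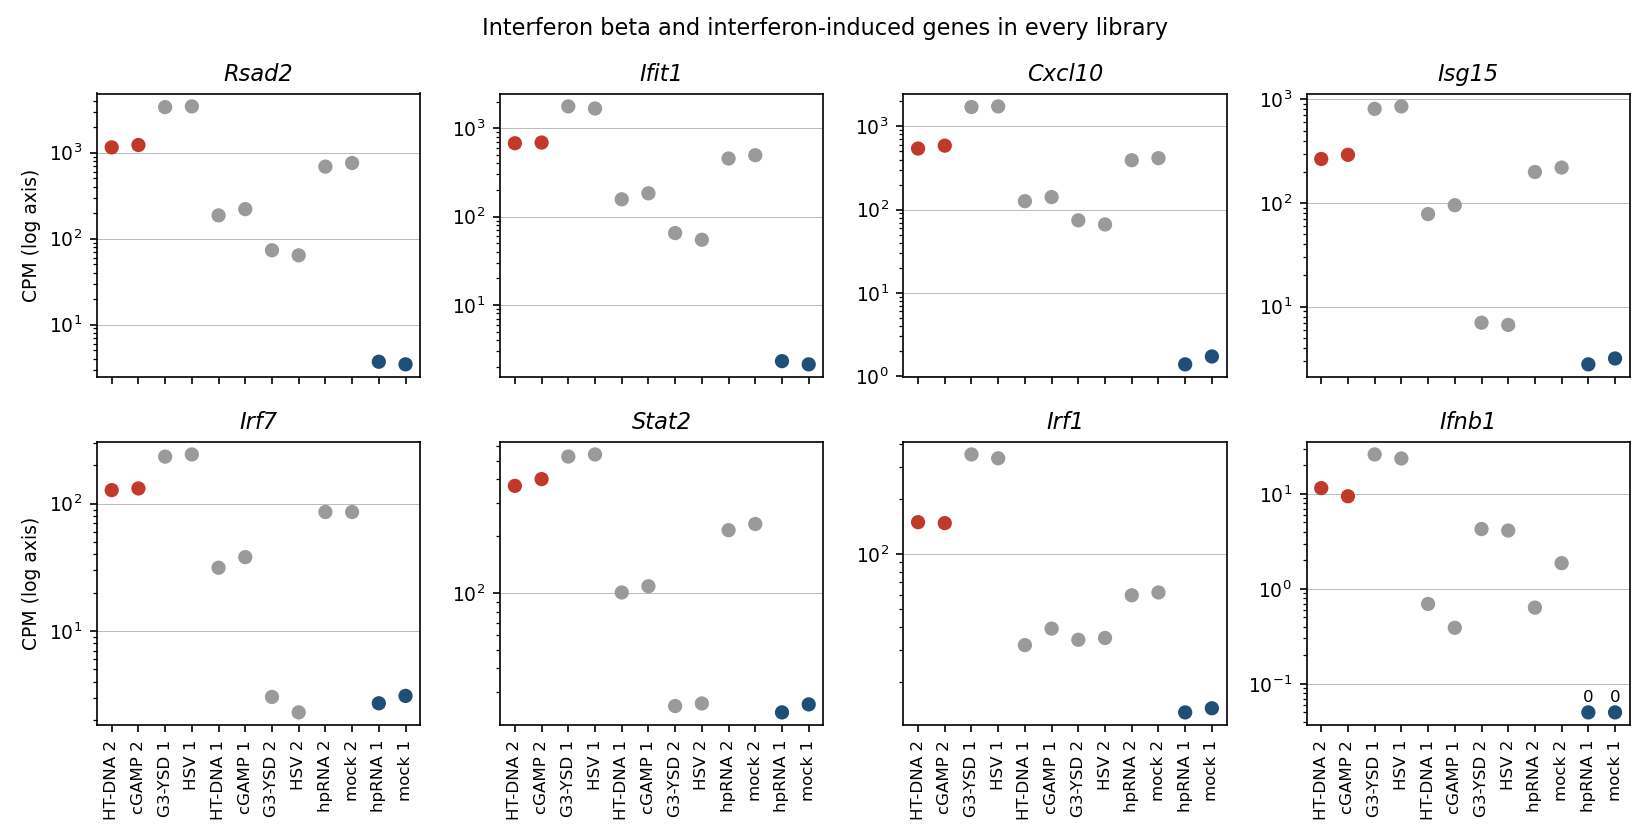
CPM on a log axis of 8 genes in all 12 libraries, 1 point a library; red marks HT-DNA 2 and cGAMP 2, blue marks hpRNA 1 and mock 1, grey the other 8, and a point marked 0 had no count. For Rsad2, HT-DNA 2 and cGAMP 2 lie at 1151 and 1225 CPM, below G3-YSD 1 and HSV 1 and above the other libraries.

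Transcription factors that carry the signal were higher as well, while receptor chains and kinases stayed under 2-fold. Irf7, which amplifies interferon alpha production, had 128 and 132 CPM in HT-DNA 2 and cGAMP 2, against 3.10 and 2.71 CPM in mock 1 and hpRNA 1 (log2 ratios 5.16 to 5.36). Irf1 had 149 and 148 CPM, against 14.4 and 13.6 CPM. Stat2 had 369 and 401 CPM in HT-DNA 2 and cGAMP 2, against 25.8 and 23.4 CPM in mock 1 and hpRNA 1. Irf9, its DNA-binding partner, had 127 and 131 CPM, against 12.9 and 12.3 CPM.

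Of 22 tested members of the interferon receptor and JAK-STAT list, 6 were higher and none was lower. Over all tested genes the shares were 2.58% and 0.306%. Among the 6 were Stat2, Irf9, Usp18 and the feedback inhibitors Socs1 and Socs3. Socs1 had 42.2 and 43.8 CPM in HT-DNA 2 and cGAMP 2, against 5.17 and 7.33 CPM in mock 1 and hpRNA 1. The receptor chain Ifnar1 had 63.0 and 62.5 CPM, against 77.8 and 76.4 CPM, and Ifnar2 had 38.8 and 39.8 CPM, against 30.7 and 34.3 CPM. The kinase Jak1 had 215 and 228 CPM in HT-DNA 2 and cGAMP 2, against 229 and 228 CPM in mock 1 and hpRNA 1. Stat3, just short of 2-fold, had 236 and 235 CPM, against 124 and 122 CPM.

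On the nucleic acid sensing list, 13 of 31 tested were higher, against 2.58% of all tested genes. Members under 1 CPM in mock 1 and hpRNA 1, such as Tlr3 and Zbp1, passed the filter only through HT-DNA 2 and cGAMP 2. Their direction was set by it, which favours this count. Several of the 13 were sensors, while the kinase and some adaptors behind them stayed under 2-fold. Ddx58, the gene of the RNA sensor RIG-I, had 289 and 290 CPM in HT-DNA 2 and cGAMP 2, against 6.66 and 7.96 CPM in mock 1 and hpRNA 1. Ifih1, the gene of MDA5, had 62.3 and 62.1 CPM, against 1.38 and 1.501 CPM. Tlr3, an endosomal receptor for double-stranded RNA, had 28.6 and 31.7 CPM in HT-DNA 2 and cGAMP 2, against 0.746 and 0.750 CPM in mock 1 and hpRNA 1. Zbp1, a sensor that can trigger necroptosis, had 20.9 and 21.6 CPM, against 0.0574 and 0.404 CPM. The DNA sensor Cgas was higher by less, with 21.0 and 20.8 CPM in HT-DNA 2 and cGAMP 2, against 8.84 and 7.45 CPM in mock 1 and hpRNA 1.

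Tmem173, the gene of STING, had 33.7 and 33.2 CPM in HT-DNA 2 and cGAMP 2, against 19.9 and 22.2 CPM in mock 1 and hpRNA 1, which is under 2-fold. The adaptor Myd88, unlike these, was past 2-fold, with 123 and 117 CPM in HT-DNA 2 and cGAMP 2, against 54.4 and 51.8 CPM in mock 1 and hpRNA 1. The adaptor Mavs had 49.2 and 51.6 CPM, against 54.6 and 58.2 CPM. The kinase Tbk1 had 76.8 and 76.0 CPM, against 57.9 and 58.5 CPM, and Irf3 had 41.1 and 41.4 CPM in HT-DNA 2 and cGAMP 2, against 42.5 and 38.6 CPM in mock 1 and hpRNA 1.

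Chemokines and cytokines were higher in 14 of 25 tested, against 2.58% of all tested genes. Members under 1 CPM in mock 1 and hpRNA 1, such as Cxcl11 and Ccl5, passed the filter only through HT-DNA 2 and cGAMP 2. For these the direction was set by the filter, which favours this count. Cxcl10, which draws T cells, had 542 and 587 CPM in HT-DNA 2 and cGAMP 2, against 1.72 and 1.39 CPM in mock 1 and hpRNA 1 (log2 ratios 7.93 to 8.28). Its neighbour Cxcl11 had 12.2 and 14.9 CPM, against 0.0574 and 0.231 CPM, and Cxcl9 had 8.73 and 9.03 CPM, against 0.344 and 0.173 CPM. Ccl5 had 56.7 and 58.4 CPM in HT-DNA 2 and cGAMP 2, against 0.517 and 0.750 CPM in mock 1 and hpRNA 1. Il6 had 15.7 and 16.8 CPM, against 0.574 and 0.289 CPM. The death ligand Tnfsf10, also known as TRAIL, had 20.6 and 25.03 CPM in HT-DNA 2 and cGAMP 2, no count in mock 1 and 0.0577 CPM in hpRNA 1. Tnf, by contrast, had 4.15 and 4.78 CPM, against 3.67 and 3.52 CPM.

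Antigen presentation was higher in 10 of 21 tested members, against 2.58% of all tested genes. Among the 10, H2-T10 was under 1 CPM in mock 1 and hpRNA 1. It passed the filter only through HT-DNA 2 and cGAMP 2, so its direction was set by it. Tap1, the peptide transporter, had 299 and 284 CPM in HT-DNA 2 and cGAMP 2, against 61.8 and 65.3 CPM in mock 1 and hpRNA 1. The non-classical class I gene H2-T22 had 59.5 and 68.0 CPM, against 12.5 and 10.3 CPM, and the immunoproteasome gene Psmb8 had 56.5 and 65.6 CPM, against 20.3 and 19.2 CPM. The classical genes were below 2-fold: H2-K1 had 566 and 569 CPM in HT-DNA 2 and cGAMP 2, against 398 and 430 CPM in mock 1 and hpRNA 1, and B2m, their light chain, had 913 and 986 CPM, against 720 and 768 CPM. H2-Aa and H2-Ab1, of class II, had no count in any of the 4 libraries.

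Of other inflammatory programmes, most tested members stayed under 2-fold, but the cell death genes Tnfsf10 and Zbp1 were far apart. The share of higher genes over all tested genes, to be set beside the counts that follow, was 2.58%. Of 25 tested NF-kB genes, 3 were higher (Tnfaip3, Map3k8 and Vcam1), with a list median of 0.21. The inhibitor Tnfaip3 had 31.0 and 29.5 CPM in HT-DNA 2 and cGAMP 2, against 9.13 and 9.52 CPM in mock 1 and hpRNA 1, while the classic feedback gene Nfkbia had 128 and 125 CPM, against 91.9 and 97.3 CPM. Of 28 tested immediate-early genes, 4 were higher (Junb, Egr1, Dusp5 and Zfp36), with a median of 0.04. The phosphatase gene Dusp5 had 75.5 and 78.7 CPM in HT-DNA 2 and cGAMP 2, against 18.2 and 20.7 CPM in mock 1 and hpRNA 1. Of 23 tested cell death genes, 6 were higher, with a median of 0.41. Of these, Tnfsf10 and Zbp1, whose levels are given above, had log2 ratios of 5.24 to 5.67 and 4.56 to 5.31. Both genes passed the filter of 1 CPM only through HT-DNA 2 and cGAMP 2, so their direction was set by it. The inflammatory caspase Casp4 had 42.7 and 46.7 CPM in HT-DNA 2 and cGAMP 2, against 8.73 and 8.48 CPM in mock 1 and hpRNA 1, and Casp12 had 12.2 and 13.3 CPM, against 4.53 and 3.92 CPM.

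The remaining 8 lists held no gene past 2-fold in either direction. Over all tested genes 2.58% were higher and 0.306% lower, so by that share each of these lists would hold few or none. They were cholesterol and fatty acid synthesis (28 tested), hypoxia and glycolysis (33), integrated stress and unfolded protein response (33), heat shock (16), p53 targets (23), NRF2 antioxidant genes (22), cell cycle (46) and fibroblast matrix (20), with medians between -0.12 and 0.23. The p53 target Cdkn1a had 147 and 150 CPM in HT-DNA 2 and cGAMP 2, against 145 and 148 CPM in mock 1 and hpRNA 1. The S-phase gene Pcna had 248 and 255 CPM, against 244 and 241 CPM. The glycolytic gene Eno2 had 84.5 and 105 CPM, against 90.2 and 91.3 CPM, and Actb had 3985 and 3997 CPM in HT-DNA 2 and cGAMP 2, against 3505 and 3559 CPM in mock 1 and hpRNA 1.

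**Figure D3:**
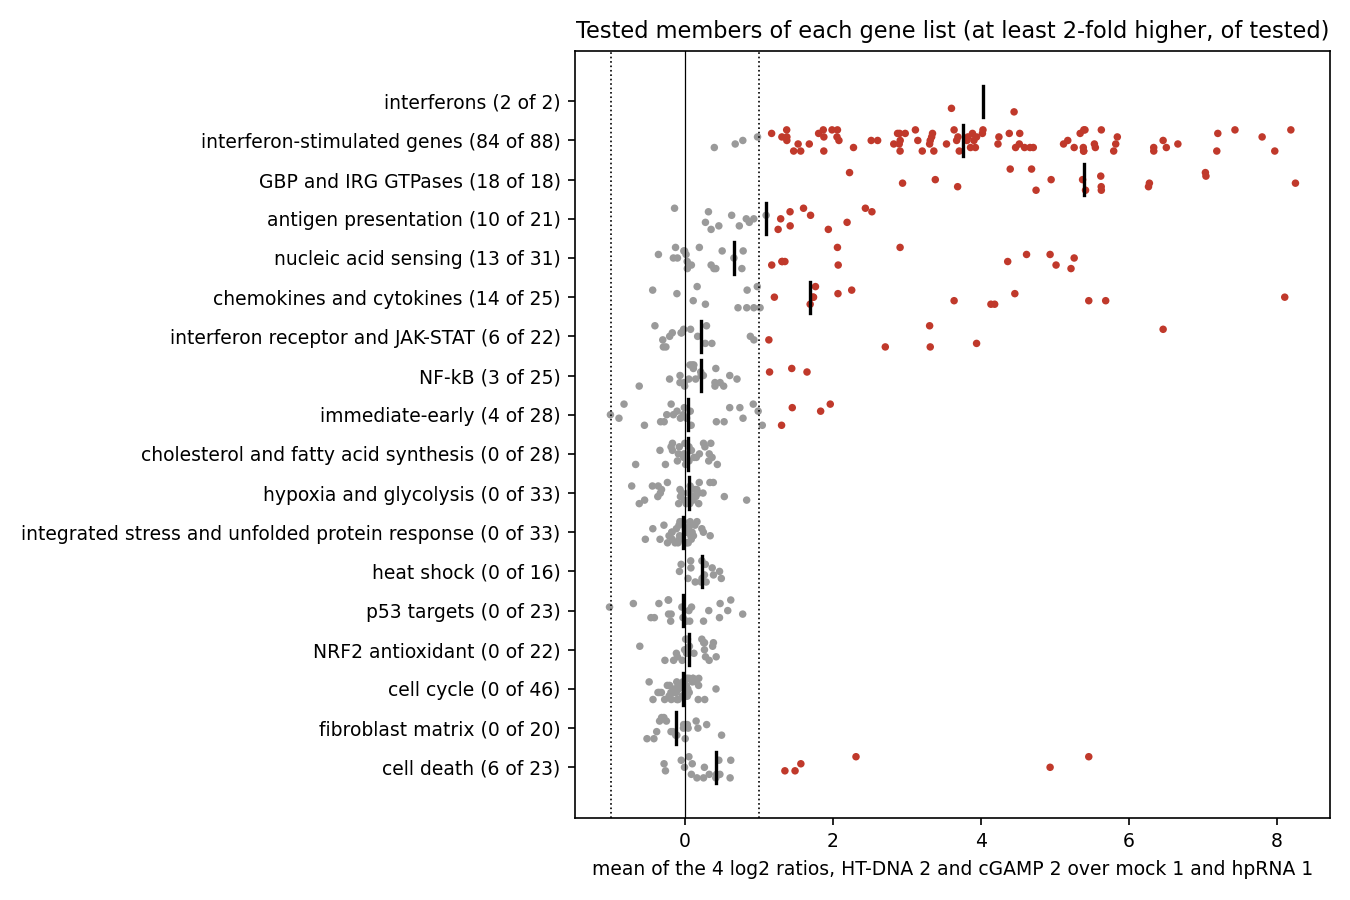
Mean of the 4 log2 ratios (horizontal) for each tested member of the 18 gene lists, 1 point a gene, red where all 4 ratios reach 2-fold; black bars are list medians and dotted lines mark 2-fold. Interferon-stimulated genes (84 of 88) and the GTPases (18 of 18) lie to the right, and 8 lists hold no red point. Of all tested genes, 2.58% were higher.

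Of the 329 higher genes, 136 were in one of 6 interferon-related lists and 193 were not. Of the 12764 tested genes, these lists held 88, 31, 25, 21, 18 and 2, with genes such as Irf7 counted in 2 of them. The lists are limited, and whether genes outside them respond to interferon was not tested. Batf2, a transcription factor of the AP-1 family, had 67.0 and 73.2 CPM in HT-DNA 2 and cGAMP 2, against 2.47 and 2.31 CPM in mock 1 and hpRNA 1. The E3 ligase gene Rnf213 had 1691 and 1704 CPM, against 168 and 170 CPM. H2-T24 and the atypical chemokine receptor gene Ccrl2 were at 35.1 and 40.8, and 19.9 and 21.8 CPM in HT-DNA 2 and cGAMP 2, against 1.49 and 1.21, and 0.746 and 0.693 CPM in mock 1 and hpRNA 1. Trim34b and Trim30c, whose families share sequence, stood at 20.04 and 20.1, and 7.98 and 6.31 CPM, against 0.230 and 0.404, and 0.115 and 0.173 CPM.

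Some of these genes have known roles outside antiviral defence. Hdc, the histamine-forming decarboxylase, had 8.98 and 8.63 CPM in HT-DNA 2 and cGAMP 2, against 0.287 and 0.346 CPM in mock 1 and hpRNA 1. Bmp10, a growth factor known from the heart, had 4.33 and 5.25 CPM in HT-DNA 2 and cGAMP 2 and no count in mock 1 or hpRNA 1, at least 25.03-fold higher over the floor of 3 counts. Clec2d, a ligand of a natural killer cell receptor, had 32.7 and 42.0 CPM, against 1.55 and 1.85 CPM, and Plekha4 had 17.8 and 21.9 CPM, against 1.44 and 1.27 CPM. Chosen after their values were seen, Pax5, a factor of B cells, had 39.8 and 42.1 CPM in HT-DNA 2 and cGAMP 2, against 9.53 and 11.6 CPM in mock 1 and hpRNA 1. The co-stimulatory receptor gene Cd40 had 111 and 114 CPM in HT-DNA 2 and cGAMP 2, against 26.4 and 30.1 CPM in mock 1 and hpRNA 1.

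The higher genes lay close to one another in the genome. Of the 329, 166 (50.5%) had another higher gene within 50 kb, while 403 of 12429 other tested genes (3.24%) had a higher gene that near, and none of the 39 lower genes had a lower neighbour. A run of 6, Ifit2, Ifit3, Ifit1bl1, Ifit3b, Ifit1bl2 and Ifit1, spans chr19:34550694-34650009, and these were all the tested genes there. The region chr11:48861968-49135387 held 10, from Irgm1 to Ifi47, and the Oas genes gave 8 on chr5:120730333-120907521. Families with near-identical members can share reads, so neighbours may not be independent.

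Promoter sequence was not used to choose the genes. The interferon response element core was in 72 of the 232 higher genes matched to a RefSeq promoter (31.0%), against 367 of 9218 tested genes (3.98%) and 1 of 32 lower genes (3.13%), in a window of 300 bases. The kB site, searched on both strands as GGGA, 1 base of any kind and TTTCC, was in 6 of the 232 (2.59%), 45 of 9218 tested genes (0.488%) and none of the 32. Over all 27025 genes of the promoter table, 3.99% held the first and 0.466% the second. Of the other genes named here, Trim34b and Ccrl2 had no core in the first listed window.

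The 39 lower genes were few and small in fold, and none was in any of the 18 lists. They made up 0.306% of all tested genes, so by that share the lists would hold few of them. Klhl24, which encodes an adaptor of a ubiquitin ligase, had 5.02 and 4.98 CPM in HT-DNA 2 and cGAMP 2, against 26.6 and 29.1 CPM in mock 1 and hpRNA 1, with log2 ratios of -2.44 to -2.30. Pdcd4, which holds back translation, had 4.21 and 3.92 CPM, against 17.97 and 17.5 CPM (-2.06 to -1.94). Fbxl20, an F-box gene, had 2.32 and 2.79 CPM in HT-DNA 2 and cGAMP 2, against 11.8 and 11.7 CPM in mock 1 and hpRNA 1.

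Among the named lower genes, Mnt and Mxd4 encode partners of MAX that oppose MYC. Mnt had 13.3 and 13.1 CPM in HT-DNA 2 and cGAMP 2, against 44.5 and 44.1 CPM in mock 1 and hpRNA 1 (-1.72 to -1.70). Mxd4 had 16.1 and 14.3 CPM, against 42.2 and 42.6 CPM (-1.54 to -1.36). Myc itself had 251 and 243 CPM in HT-DNA 2 and cGAMP 2, against 226 and 241 CPM in mock 1 and hpRNA 1. Klf11, a zinc-finger repressor, had 7.29 and 7.83 CPM, against 24.6 and 23.4 CPM. Mturn had 4.84 and 3.12 CPM, against 15.7 and 18.5 CPM, and Calcoco1, an autophagy receptor gene, had 8.17 and 9.03 CPM in HT-DNA 2 and cGAMP 2, against 28.5 and 25.4 CPM in mock 1 and hpRNA 1.

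**Figure D4:**
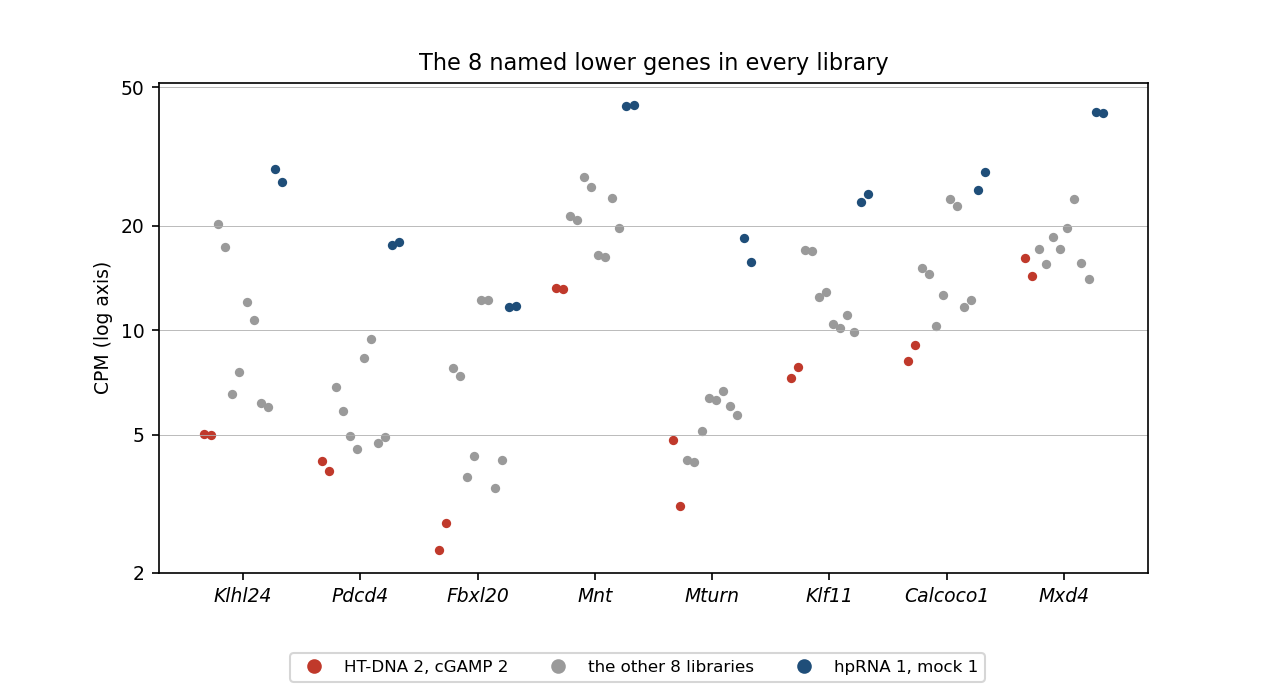
CPM on a log axis of the 8 named lower genes in all 12 libraries, 1 point a library; red marks HT-DNA 2 and cGAMP 2, grey the other 8, blue hpRNA 1 and mock 1. For Klhl24 the red points lie at 5.02 and 4.98 CPM and are the lowest of the 12.

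HT-DNA 2 and cGAMP 2 were chosen for the closeness of their counts, so their likeness is a description of the choice. None of the 329 higher or 39 lower genes differed 2-fold between them. The higher genes were above in cGAMP 2 in 232 of 329 (70.5%), with a median log2 ratio of HT-DNA 2 over cGAMP 2 of -0.06, whereas 51.4% of all tested genes were above in cGAMP 2, with a median of 0.00. The gene furthest apart among those of at least 5 CPM was Srp54b, of the signal recognition particle, with 9.74 CPM in HT-DNA 2 and 27.9 CPM in cGAMP 2. It had 36.3 CPM in cGAMP 1, and between 7.04 and 19.2 CPM in the other 9 libraries. The summed level of Srp54a, Srp54b and Srp54c, near-identical copies among which reads may be shared, was 107 CPM in cGAMP 2 and 104 CPM in cGAMP 1, and between 66.3 and 94.0 CPM in the other 10 libraries. Adnp had 10.2 CPM in HT-DNA 2 and 4.51 CPM in cGAMP 2, and Gnpda2, Plekhh2, Snord104 and mt-Te were the others named by the same size.

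Among all 12 libraries, the interferon response of HT-DNA 2 and cGAMP 2 was intermediate. The median log2 level of the 88 interferon-stimulated genes over mock 1 and hpRNA 1 was 3.68 in HT-DNA 2 and 3.80 in cGAMP 2. The libraries G3-YSD 1 and HSV 1 lay higher, at 5.12 and 5.17. The median was 2.94 in mock 2 and 2.79 in hpRNA 2, and 1.76 in HT-DNA 1 and 1.82 in cGAMP 1. The libraries G3-YSD 2 and HSV 2 lay nearest to mock 1 and hpRNA 1, at 0.37 and 0.44. G3-YSD 1 and HSV 1 were both above HT-DNA 2 and cGAMP 2 for 81 of the 88 genes, against 30.9% of all tested genes, and both below for 3, Slfn2, Slfn3 and N4bp1, against 51.8%. Mock 2 and hpRNA 2 were both below for 83, against 23.3% of all tested genes, and both above for 3, Cmpk2, Oasl1 and Zc3hav1, against 25.7%. HT-DNA 1 and cGAMP 1 were both below for 87, and G3-YSD 2 and HSV 2 for all 88, against 24.7% and 50.5% of all tested genes. Set against mock 1 and hpRNA 1 instead, mock 2 and hpRNA 2 were both above for all 88, and for 325 of the 329 higher genes. These counts were 88 and 328 for G3-YSD 1 with HSV 1, 85 and 290 for HT-DNA 1 with cGAMP 1, and 54 and 175 for G3-YSD 2 with HSV 2. The 329 were chosen partly for low values in mock 1 and hpRNA 1, which favours their counts. Higher levels of these genes were thus not particular to HT-DNA 2 and cGAMP 2.

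**Figure D5:**
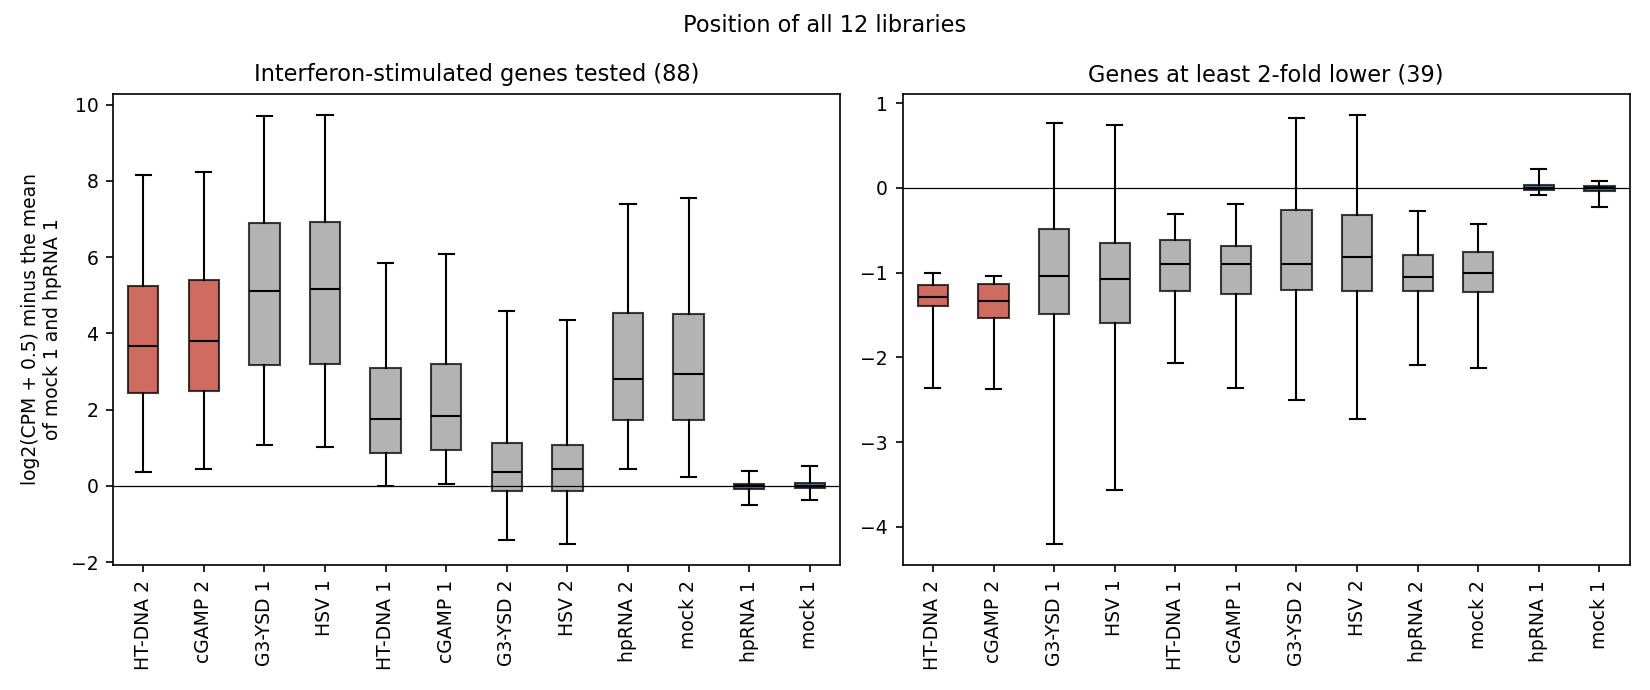
Log2 level relative to the mean of mock 1 and hpRNA 1, for the 88 tested interferon-stimulated genes (left) and the 39 lower genes (right) in each of the 12 libraries; boxes span the quartiles with the median as a line, and whiskers reach the lowest and highest gene. On the left HT-DNA 2 and cGAMP 2 (red) have medians of 3.68 and 3.80, between G3-YSD 1 and HSV 1 above and the other libraries below; hpRNA 1 and mock 1 are at the right of each panel.

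The order was not the same for every gene. Ccl5 had 56.7 and 58.4 CPM in HT-DNA 2 and cGAMP 2, below the 120 and 124 CPM of mock 2 and hpRNA 2 and the 793 and 817 CPM of G3-YSD 1 and HSV 1. Ifih1, at 62.3 and 62.1 CPM, was likewise below mock 2 and hpRNA 2, at 69.5 and 68.2 CPM. Ifnb1 followed another order than Ifit1, with 11.5 and 9.43 CPM in HT-DNA 2 and cGAMP 2, where G3-YSD 1 and HSV 1 had 26.0 and 23.6 CPM, G3-YSD 2 and HSV 2 had 4.26 and 4.11 CPM, mock 2 and hpRNA 2 had 1.86 and 0.634 CPM, and HT-DNA 1 and cGAMP 1 had 0.693 and 0.389 CPM. Ifit1 had 65.0 and 54.6 CPM in G3-YSD 2 and HSV 2, below the 157 and 183 CPM of HT-DNA 1 and cGAMP 1.

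For 20 of the 329 genes (6.08%), HT-DNA 2 and cGAMP 2 were the highest of all 12 libraries, which was counted after the values were seen. Over all tested genes the share was 4.08%, so the count itself is near the background. The 329 were chosen for high values in HT-DNA 2 and cGAMP 2, which favours it. Stonin 2 (Ston2) had 5.28 and 7.24 CPM in HT-DNA 2 and cGAMP 2, against at most 2.25 CPM elsewhere. Tgm1, a transglutaminase gene, had 14.3 and 15.4 CPM, against at most 8.19 CPM in the other libraries. Dusp5 had 75.5 and 78.7 CPM in HT-DNA 2 and cGAMP 2, where G3-YSD 1 and HSV 1 had 36.5 and 32.3 CPM. The feedback inhibitor Socs3 had 119 and 113 CPM, where G3-YSD 1 and HSV 1 had 63.6 and 60.5 CPM and G3-YSD 2 and HSV 2 had 90.3 and 91.6 CPM. Batf2, Socs1, Nos2 and Ifi202b were also among the 20.

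The 39 lower genes were chosen partly because mock 1 and hpRNA 1 are high in them, which favours lower values in any other library. All 39 were below mock 1 and hpRNA 1 in HT-DNA 1 and cGAMP 1, and all 39 in mock 2 and hpRNA 2, against 30.5% and 31.7% of all tested genes. In G3-YSD 1 and HSV 1, 35 were below, and in G3-YSD 2 and HSV 2, 31, against 51.9% and 49.1% of all tested genes. HT-DNA 2 and cGAMP 2 were the lowest of all 12 libraries for 14 of the 39, against 2.08% of all tested genes. The 39 were also chosen for low values in HT-DNA 2 and cGAMP 2, which favours this count. Among the 14 were Klhl24, Pdcd4, Fbxl20, Mnt, Klf11 and Calcoco1. Klhl24 had 6.02 and 6.17 CPM in mock 2 and hpRNA 2, and 20.2 and 17.3 CPM in G3-YSD 1 and HSV 1.

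The labels allow 4 replicated comparisons, HT-DNA or cGAMP against mock or hpRNA, with 2 libraries each. edgeR's quasi-likelihood test over 14543 genes, with a term for each label, none for the replicate number and Benjamini-Hochberg adjustment, called no gene in any of them at an adjusted p of 0.05 (0% each). At an unadjusted p under 0.05, 288 genes (1.98%) passed for HT-DNA against mock, 285 (1.96%) for HT-DNA against hpRNA, 483 (3.32%) for cGAMP against mock and 279 (1.92%) for cGAMP against hpRNA. DESeq2 called none for the first, Gm24270 for the second and Srp54b for each of the cGAMP comparisons. The same edgeR fit without a filter on low counts called 240, 261, 298 and 278 genes in that order, and the cause was not tested. With the filter but without HT-DNA 2, it called CT010467.1 for HT-DNA against mock and, for HT-DNA against hpRNA, CT010467.1, Gm24270 and Lars2. With the replicate number as a block, the edgeR fit called 14, 25, 23 and 39 genes in the order of comparisons above. The labels do not say that numbers pair libraries.

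For the interferon-stimulated genes, each label held libraries that differ widely. Ifit1 had a log2 fold change of 0.74 ± 2.27 (SE) for HT-DNA against mock, with an adjusted p of 0.975 by edgeR's quasi-likelihood test. HT-DNA 2 and HT-DNA 1 had 676 and 157 CPM, against 2.12 CPM in mock 1 and 495 CPM in mock 2. Ifnb1 had a log2 fold change of 2.71 ± 1.90 (SE) in that comparison, and an edgeR adjusted p of 0.966. Over the 88 genes the median SE was 1.36, against 0.15 over all genes. Klhl24 was at -1.50 ± 0.86 (SE) for HT-DNA against mock, with an edgeR adjusted p of 0.966. Srp54b was at 1.61 ± 0.32 (SE) for cGAMP against mock, with an edgeR adjusted p of 0.902.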

How the data were processed

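PolyA-selected RNA of L929 cells was sequenced in 12 libraries on an Illumina instrument, per the labels' protocols. The authors deposited raw counts per Ensembl gene, 1 file a library. The submitters' processing notes list mm10, HISAT2 and HTSeq with no version. Neither the gene annotation nor the use of strand in counting is given in the sources used here. Overlapping or antisense genes and close paralogs may therefore share reads. Of 54532 genes, 54495 matched GENCODE M21, which gave symbols and positions. Totals ranged from 12650790 to 18912400.

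From the counts, CPM on the TMM scale were computed (edgeR 4.0.16, R 4.3.3) over the 4 libraries, and the other 8 were put on it with TMM factors of all 12 and a common constant. Ratios used CPM + 0.5, so they understate changes of low genes. The noise ratio used genes with at least 100 counts in a pair. Fits by label used 8 libraries, 1 term a label, edgeR's default low-count filter, 4 residual degrees of freedom and a common biological coefficient of variation of 0.187. Their SE was back-calculated, as the absolute log2 fold change over the square root of the quasi-likelihood F statistic. The p-values measure the spread between the libraries of a label, part of which may be technical. Alternatives were other scalings, pseudocounts, filters, folds and fits, DESeq2 1.42.0, and leaving out each library.

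The libraries, gene lists and tests were chosen with earlier results of these data known. Named were 18 genes in all cases, the 12 genes most above and 8 most below at 5 CPM or more, up to 4 per list, the 10 largest outside the interferon-related lists, 3 on each side of the 2-fold threshold and the 6 furthest apart between HT-DNA 2 and cGAMP 2, leaving out predicted genes and pseudogenes. The digit of the HSV titles was read as a replicate number, though it could name a virus type. Some genes are not reported here.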

Additional observations from a re-analysis of the deposited data

How the results depend on the processing

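The count of higher genes was 329, and 311 with scaling by library total, 328 with median-of-ratios factors, 361 and 263 with pseudocounts of 0.1 and 2, 353 without a filter, 249 at 5 CPM, and 352 to 370 leaving out 1 library. The last loosens the rule, since only 2 ratios then have to pass. The count of lower genes was 39 and became 19 with a pseudocount of 2, and 52 to 64 leaving out 1 library, with 64 without HT-DNA 2 and 64 without cGAMP 2. A fold of 1.5 gave 533 higher and 233 lower genes, and a fold of 4 gave 164 and 1. The count of interferon-stimulated genes, 84, stayed between 69 and 87. Scaling by library total moved the median log2 ratio of tested genes to -0.08. In the fits by label, edgeR called 0 genes in each comparison, also with upper quartile scaling and with all 12 libraries. Without a filter it called 240 (HT-DNA against mock), 261 (HT-DNA against hpRNA), 298 (cGAMP against mock) and 278 (cGAMP against hpRNA), of which 174, 181, 198 and 202 were among the 329; the cause was not tested. DESeq2 called 1 gene in each comparison but HT-DNA against mock, with 0. Leaving out 1 library gave 0 to 1 calls for HT-DNA against mock, 0 to 3 for HT-DNA against hpRNA, and 0 for both cGAMP comparisons; the calls came without HT-DNA 2 and were CT010467.1, Gm24270 and Lars2. The labels do not say that numbers pair libraries. Deviations of same-numbered libraries correlated at 0.457 to 0.764, and with the replicate number as a block 14, 25, 23 and 39 genes were called in the order above. Over named genes and alternatives, 104 library ratios moved by more than counting error, 512 did not and none was reversed, while 69 values by label passed the threshold and 579 did not.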
